A study of Mus musculus with 16 samples.

Results

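The expression of 10 circadian clock genes was measured in nuclei of the mouse hippocampus: the activator Arntl, the repressors Per1, Per2 and Per3, the nuclear receptors Nr1d1 and Nr1d2, the clock output factors Dbp, Tef and Hlf, and the repressor Ciart. They were taken by symbol from the 32285 genes of the count tables, and all 10 were found. The series holds 16 single-nucleus RNA libraries, each from the hippocampus of 1 female mouse aged 9 months, in 4 groups of 4. By the labels, Ch25h was either intact (Ch25h+/+) or lost (Ch25h-/-), and mice of each genotype were marked either Tau+ or Tau-. Below, with tau and without tau stand for these marks. The labels do not say what the Tau- mice lack, so without tau need not mean that all tau is absent. Ch25h encodes cholesterol 25-hydroxylase, which makes 25-hydroxycholesterol, and the design allows the effect of tau to be read at each Ch25h genotype and the effect of Ch25h loss in each tau state. Titles differ between all libraries, and the numbers used here for replicates only name them. The tau line, its promoter, the deleted part of Ch25h and the hour at which tissue was taken are not given in the sources used here.

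In mammalian cells the clock is a feedback loop of transcription. BMAL1, the protein of Arntl, pairs with CLOCK or NPAS2 and binds E-box sequences, where it turns on the Per and Cry genes, Nr1d1, Nr1d2, Dbp, Tef, Hlf and Ciart. PER and CRY proteins accumulate, return to the nucleus and repress the same activator. REV-ERB alpha and REV-ERB beta, made from Nr1d1 and Nr1d2, compete with ROR receptors at their response elements and repress Arntl, so that Arntl mRNA runs in antiphase to the E-box targets. DBP, TEF and HLF are PAR bZIP factors that bind D-boxes, among them those of the Per genes. The loop runs in the suprachiasmatic nucleus and also in hippocampal neurons and glia, so that the level of each gene depends on the hour of sampling.

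Sequences before a RefSeq transcription start are shown for 5 members. They are the 3 members with the most motif copies or motif kinds (Ciart, Per3 and Per1), and Nr1d2 and Hlf. Levels of Nr1d2 and Hlf differed between groups in a class of nuclei below. RefSeq entries (GRCm38.p6) were matched for 9 of the 10 members, all but Per2, and bases that lie in an annotated exon are left out of what is printed. Where RefSeq gave more than 1 start, the most upstream was used. The sequences run 5′ to 3′ on the gene's own strand and end next to that start, or next to the first GENCODE exon where that comes earlier. For Per1 the RefSeq start lies 3732 bases inside the gene as GENCODE M21 gives it, so its sequence is not upstream of the whole annotated gene but precedes an internal start. For Hlf it lies 22 bases before the GENCODE start, for Nr1d2 and Ciart 21 and 23 bases after it, and for Per3 the starts are the same. The capitals mark the E-box CACGTG, the E′-box CACGTT, the D-box TTATGTAA and the receptor half-site AGGTCA, each searched on both strands with no overlap found between motifs.
Per1, chr11:69098699-69098947, + strand: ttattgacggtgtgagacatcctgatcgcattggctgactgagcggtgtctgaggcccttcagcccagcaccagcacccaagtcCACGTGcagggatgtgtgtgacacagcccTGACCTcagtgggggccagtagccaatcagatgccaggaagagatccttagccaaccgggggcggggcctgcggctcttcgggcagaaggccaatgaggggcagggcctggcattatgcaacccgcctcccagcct
Per3, chr4:151044666-151044915, - strand: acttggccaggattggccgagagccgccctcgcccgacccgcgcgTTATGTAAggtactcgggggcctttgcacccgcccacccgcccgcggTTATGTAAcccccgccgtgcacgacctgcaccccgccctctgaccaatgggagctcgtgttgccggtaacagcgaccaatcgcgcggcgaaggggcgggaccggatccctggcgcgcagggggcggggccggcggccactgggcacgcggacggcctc
Ciart, chr3:95882252-95882478, - strand: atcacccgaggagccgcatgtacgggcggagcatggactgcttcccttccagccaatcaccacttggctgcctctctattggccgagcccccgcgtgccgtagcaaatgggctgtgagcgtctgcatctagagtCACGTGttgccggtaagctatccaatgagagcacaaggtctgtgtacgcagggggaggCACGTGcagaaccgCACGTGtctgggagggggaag
Nr1d2, chr14:18239128-18239356, - strand: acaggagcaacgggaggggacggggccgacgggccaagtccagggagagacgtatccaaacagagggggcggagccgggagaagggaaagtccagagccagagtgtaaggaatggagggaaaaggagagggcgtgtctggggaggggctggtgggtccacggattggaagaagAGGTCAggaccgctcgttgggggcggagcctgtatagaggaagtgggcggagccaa
Hlf, chr11:90390918-90391167, - strand: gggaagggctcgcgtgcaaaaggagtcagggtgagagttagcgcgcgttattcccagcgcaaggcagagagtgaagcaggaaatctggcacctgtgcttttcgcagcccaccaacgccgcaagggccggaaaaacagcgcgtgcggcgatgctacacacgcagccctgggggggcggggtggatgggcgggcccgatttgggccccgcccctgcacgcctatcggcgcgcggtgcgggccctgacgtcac

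Among 32851 windows of 250 bases before a gene start, 6.02% held an E-box, 3.85% an E′-box, 0.819% the D-box and 14.0% the half-site. Distances in the members' windows are counted from the RefSeq start. Ciart had 3 E-boxes, 116, 58 and 44 bases before its start. Per1 had an E-box 166 bases and a half-site 137 bases before its internal start. Tef had an E-box at 127 bases, before a start that lies 252 bases inside its GENCODE gene. Nr1d1 had an E′-box at 28 bases, Per3 had D-boxes at 205 and 158 bases, and Nr1d2 had a half-site at 77 bases. The windows of Arntl, Dbp and Hlf held none of these letters. A match describes the sequence and is no evidence of binding.

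Positions of the members are those of GENCODE M21 on GRCm38, and some members share bases with other genes. Arntl is at chr7:113207465-113314126 (+), Per1 at chr11:69095217-69109960 (+), Per2 at chr1:91415982-91459324 (-) and Per3 at chr4:151003652-151044665 (-). Nr1d1 is at chr11:98767932-98775333 (-), Nr1d2 at chr14:18204054-18239127 (-), Dbp at chr7:45705088-45710203 (+), Tef at chr15:81802421-81826863 (+), Hlf at chr11:90336536-90390895 (-) and Ciart at chr3:95878503-95882251 (-). All of Per3 lies within Camta1 on the same strand, so counts from introns of the pair could be split either way. Nr1d1 shares 1075 bases with Thra and Dbp shares 737 bases with Sphk2, in both cases on the other strand, and Arntl, Tef and Ciart each overlap an antisense gene. How the authors' counting treated introns and strand is not given in the sources used here, so levels of these members are uncertain to that extent.

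The libraries held 51270831 to 84870650 unique molecular identifiers (UMIs) each over all barcodes. Of 147873 nuclei with at least 500 UMIs, at least 300 genes and at most 5% mitochondrial UMIs, 136828 were kept after putative doublets were removed, with a median of 3642.5 to 6253 UMIs per library. Clustering that left out the clock genes gave 8 marker-defined classes of 125135 nuclei: microglia (6117 nuclei), OPCs, which are precursors of oligodendrocytes (3826), oligodendrocytes (22852), astrocytes (13723), inhibitory neurons (10968), granule neurons of the dentate gyrus (DG, 21896), CA pyramidal neurons (20257) and the remaining or other excitatory neurons (25496). These are names by likeness to fixed markers, as in astrocyte-like, and the suffix is left out below. A barcode was found in more than 1 library for 1.86% of 145135 distinct nucleus barcodes. Ch25h itself gave 8 to 36 UMIs per library and did not fall in the libraries labelled Ch25h-/-, at 0.399 ± 0.113 counts per 1000000 UMIs (CPM) against 0.334 ± 0.204 in Ch25h+/+ (SD, n = 8 each). These few counts do not check the genotype labels, and every direction given for Ch25h loss rests on the labels. The labels name no batch. An earlier analysis of these data found replicates 1 and 2 of each group apart from replicates 3 and 4, so values within each of these sets are given beside each call. This split was drawn from these same data and is not a factor that the labels give. Calls made with a term for the split, or within 1 of the sets, are thus descriptions and no independent support.

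All levels below are CPM: the UMIs of a gene in the nuclei of a class and library, scaled by a total and by edgeR's TMM factors. The total was the UMIs of all genes that passed a filter on low counts in that class. Ch25h, free RNA, marker sums, classes too small to compare and neurons or glia as a whole were scaled by the UMIs alone. Levels are compared between classes, groups and libraries and not between genes. Astrocytes had the highest mean of the 8 classes for 8 of the 10 members, all but Per2 and Ciart, which were highest in OPCs. Neighbours in each gene's order of classes were compared within libraries by a two-sided paired sign-flip permutation test on log2(CPM + 1) with Benjamini-Hochberg adjustment over 70 pairs, and 42 pairs differed. The smallest adjusted p over the 70 pairs was 1e-04.

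**Figure D1:**
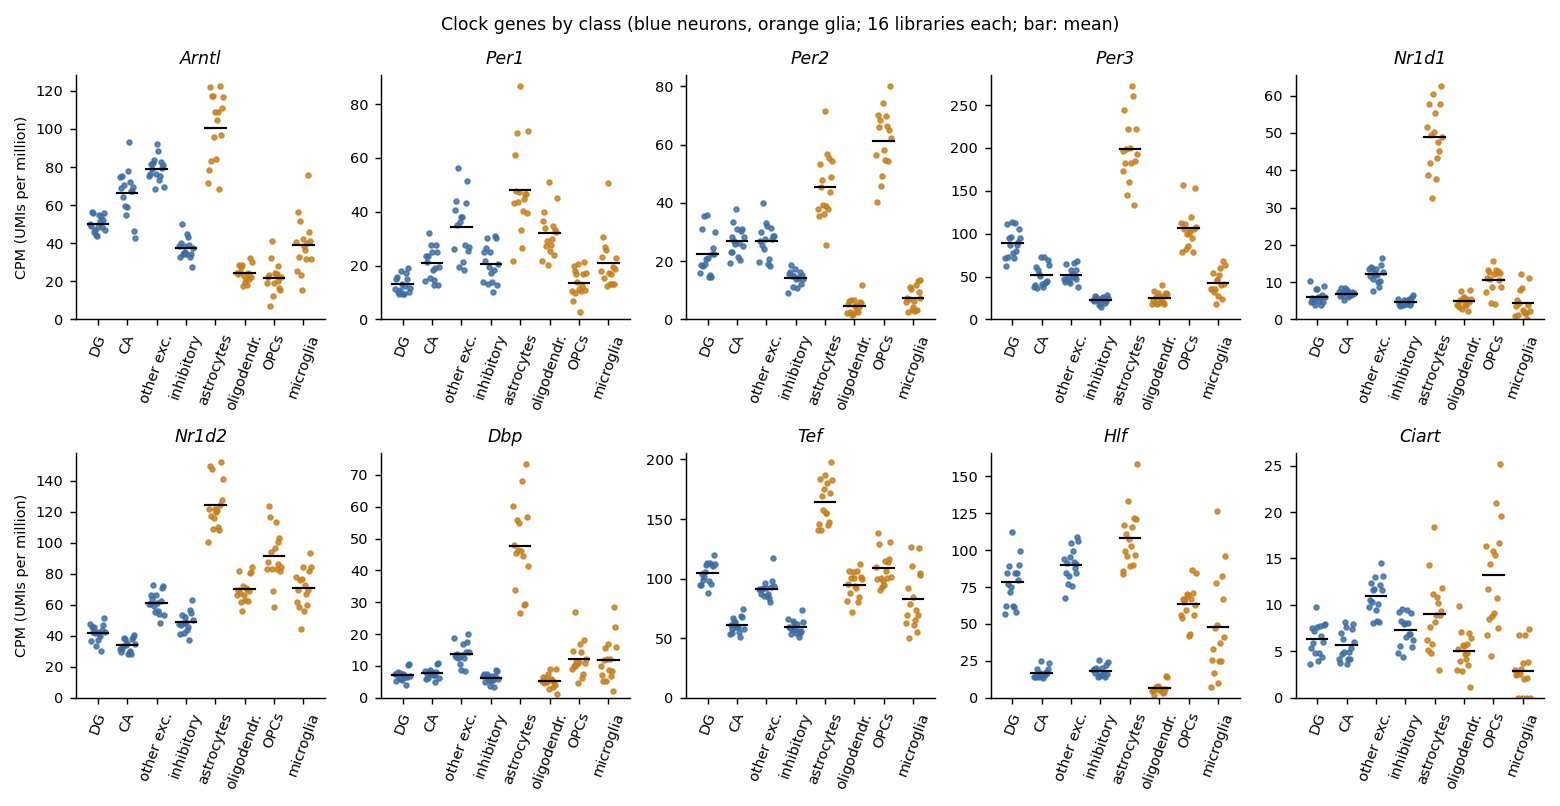
Level of each clock gene (CPM, vertical axis) in 8 classes of nuclei (horizontal axis), 1 panel per gene and 1 point per library (16 points per class). Among these 8 classes, astrocytes stand above the others for Nr1d1 and Dbp, at means of 48.8 and 47.5 CPM, while the points for Hlf in microglia spread from 6.96 to 126 CPM.

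Arntl was highest in astrocytes, at 101 ± 18.2 CPM (SD, n = 16 libraries here and for every class mean), followed by other excitatory neurons at 79.0 ± 6.28, CA pyramidal neurons at 66.5 ± 12.2 and DG granule neurons at 50.3 ± 4.18. Microglia at 39.3 ± 14.2 and inhibitory neurons at 37.4 ± 5.46 did not differ beyond their spread (permutation test, adjusted p = 0.991), nor did oligodendrocytes at 24.2 ± 4.22 and OPCs at 22.0 ± 7.93 (adjusted p = 0.223). All other neighbours differed, and astrocytes exceeded other excitatory neurons in 13 of 16 libraries (adjusted p = 0.00252). The activator's transcript stood lowest in the oligodendrocyte lineage.

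The Per genes encode the repressor proteins of the loop. Per1, which light, activity and glucocorticoids also induce, was highest in astrocytes at 48.0 ± 16.7 CPM, ahead of other excitatory neurons at 34.3 ± 11.3 in 13 of 16 libraries (adjusted p = 0.00471, permutation test). Oligodendrocytes at 32.0 ± 8.29 did not differ from other excitatory neurons beyond their spread (adjusted p = 0.717). Microglia at 21.1 ± 9.56, CA pyramidal neurons at 20.8 ± 5.84 and inhibitory neurons at 20.6 ± 6.86 formed a middle level with no difference between neighbours, and OPCs at 13.7 ± 5.24 and DG granule neurons at 13.04 ± 3.28 were lowest and not told apart. Per2 differed from Per1 in its order. It was highest in OPCs at 61.3 ± 10.75 CPM, above astrocytes at 45.6 ± 11.1 in 15 of 16 libraries (adjusted p = 1e-04, permutation test). Other excitatory neurons at 27.1 ± 5.79 and CA pyramidal neurons at 27.0 ± 4.98 could not be told apart (adjusted p = 0.923), and DG granule neurons at 22.5 ± 7.12, inhibitory neurons at 14.3 ± 2.53, microglia at 7.48 ± 3.74 and oligodendrocytes at 4.73 ± 2.56 followed in that order, each below the one before. The last places rest on few counts of Per2, from 1 to 7 UMIs per library in microglia and 3 to 20 in oligodendrocytes. In microglia these were too few to test between groups. Oligodendrocytes thus took the third place for Per1 and the last for Per2. Per3 was highest in astrocytes at 198 ± 38.8 CPM, above OPCs at 106 ± 22.9 in all 16 libraries (adjusted p = 1e-04, permutation test). DG granule neurons followed at 89.4 ± 16.1, then CA pyramidal neurons at 51.7 ± 12.97 and other excitatory neurons at 51.6 ± 8.75, which did not differ (adjusted p = 0.890), microglia at 42.4 ± 14.4, oligodendrocytes at 25.4 ± 6.75 and inhibitory neurons at 22.7 ± 3.79, of which the last pair did not differ (adjusted p = 0.276). DG granule neurons thus shared the last place with OPCs for Per1 and took the third for Per3.

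Nr1d1, which encodes REV-ERB alpha, was the member with the widest step between its first and second class. Astrocytes held 48.8 ± 8.62 CPM, from 32.5 to 62.5 over the 16 libraries, and other excitatory neurons 12.1 ± 2.29, a difference of 1.92 ± 0.21 on the log2(CPM + 1) scale (SD, n = 16) seen in every library. OPCs at 10.7 ± 3.24 did not differ from other excitatory neurons (adjusted p = 0.137, permutation test). CA pyramidal neurons held 6.94 ± 0.856 and DG granule neurons 6.10 ± 1.85, and oligodendrocytes at 4.83 ± 1.51, inhibitory neurons at 4.72 ± 0.823 and microglia at 4.31 ± 3.72 were not told apart. The microglial mean joins 2.34 ± 1.39 CPM in Tau+ and 6.28 ± 4.34 in Tau- libraries (SD, n = 8 each), below and above both of those classes in the same libraries, and Nr1d1 had too few counts in microglia to test. Its relative Nr1d2, which encodes REV-ERB beta, was spread more evenly. Its level was 124 ± 15.6 CPM in astrocytes, 91.4 ± 17.2 in OPCs, 70.8 ± 12.7 in microglia and 70.2 ± 8.13 in oligodendrocytes, the last pair not differing (adjusted p = 0.9802, permutation test). Neurons were lowest, with 61.4 ± 7.01 in other excitatory neurons, 48.6 ± 6.49 in inhibitory neurons, 41.7 ± 5.37 in DG granule neurons and 33.7 ± 4.15 in CA pyramidal neurons, each below the one before. All 4 glial classes thus ranked above all 4 neuronal classes for Nr1d2.

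Dbp, the output factor most closely tied to E-box activity in textbooks, followed Nr1d1. Astrocytes held 47.5 ± 13.7 CPM against 13.8 ± 3.25 in other excitatory neurons, a difference of 1.69 ± 0.30 on the log2(CPM + 1) scale (SD, n = 16) seen in all 16 libraries. The remaining means ran from 12.1 ± 5.36 in OPCs and 11.8 ± 6.85 in microglia through CA pyramidal neurons at 7.69 ± 1.54, DG granule neurons at 7.08 ± 1.68 and inhibitory neurons at 6.25 ± 1.52 to oligodendrocytes at 5.36 ± 2.11. In microglia Dbp stood at 8.73 ± 2.42 CPM in Tau+ and 14.9 ± 8.55 in Tau- libraries (SD, n = 8 each). Other excitatory neurons held 13.7 and 13.9 CPM in the same order, so the place of microglia differed with tau, and Dbp too had too few counts there to test. Among the lower classes, over all 16 libraries, only DG granule neurons and inhibitory neurons differed as neighbours. Tef was more even, with 165 ± 18.5 CPM in astrocytes, 109 ± 14.3 in OPCs, 104 ± 8.94 in DG granule neurons, 94.98 ± 11.3 in oligodendrocytes, 91.6 ± 8.35 in other excitatory neurons, 83.2 ± 24.5 in microglia, 61.0 ± 6.34 in pyramidal neurons of CA and 59.3 ± 5.73 in inhibitory neurons. OPCs and DG granule neurons (adjusted p = 0.381, permutation test), oligodendrocytes and other excitatory neurons (0.343), other excitatory neurons and microglia (0.0944) and the lowest pair (0.384) did not differ beyond their spread. Hlf separated the classes most steeply at the low end. Its level ran from astrocytes at 108 ± 19.7 CPM through other excitatory neurons at 90.1 ± 11.4, DG granule neurons at 78.1 ± 15.7, OPCs at 63.7 ± 12.2 and microglia at 47.8 ± 33.6 to inhibitory neurons at 18.2 ± 3.46 and CA pyramidal neurons at 16.8 ± 3.37, which did not differ (adjusted p = 0.271, permutation test), and oligodendrocytes at 6.44 ± 3.39. The SD in microglia, at 33.6 CPM, was the widest for Hlf in any class. The place of microglia differed with tau. In Tau- libraries they held 73.3 ± 28.7 CPM, above the 67.5 ± 8.75 of OPCs, and in Tau+ libraries 22.4 ± 10.6, between OPCs at 60.005 ± 14.5 and inhibitory neurons at 17.7 ± 2.05 (SD, n = 8 each), and these orders were not tested. For Tef likewise, microglia stood at 100 ± 21.3 CPM in Tau- libraries, above oligodendrocytes at 97.0 ± 12.9, and at 66.1 ± 12.9 in Tau+ libraries, below them at 93.0 ± 9.95 (SD, n = 8 each).

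Ciart, whose product CHRONO represses the activator beside the PER and CRY proteins, was low everywhere. OPCs at 13.2 ± 5.75 CPM and other excitatory neurons at 10.9 ± 1.92 did not differ (adjusted p = 0.346, permutation test). Astrocytes at 9.03 ± 3.87 and inhibitory neurons at 7.28 ± 1.70 did not differ either (0.289). DG granule neurons at 6.30 ± 1.71, CA pyramidal neurons at 5.65 ± 1.57 and oligodendrocytes at 5.04 ± 2.04 followed without a difference between neighbours, and microglia at 2.89 ± 2.40 were lowest. Microglia held only 0 to 4 UMIs of Ciart per library, too few to test between groups. RNA outside nuclei sets a background for these levels. In barcodes with under 100 UMIs, which hold mostly free RNA, mean levels over the libraries were 36.4 CPM for Dbp, 27.7 for Nr1d1, 15.7 for Ciart, 41.3 for Per1, 71.1 for Nr1d2 and 112 for Tef. All of these exceeded the levels of all nuclei together, at 11.7, 10.4, 7.80, 25.4, 54.2 and 86.3 CPM in the same order. For the other members free RNA held 41.0 CPM of Arntl, 22.0 of Per2, 53.7 of Per3 and 52.8 of Hlf. Class means lay under the level of free RNA for Ciart in all 8 classes, and for Per1, Nr1d1, Dbp and Tef in the 7 classes other than astrocytes. For Nr1d2 they did so in 6 classes, all but astrocytes and OPCs, and for Per3 in 5, all but astrocytes, OPCs and DG granule neurons. Inhibitory neurons, oligodendrocytes and microglia lay under it for Arntl, Per2 and Hlf, with OPCs added for Arntl and CA pyramidal neurons for Hlf. The part of free RNA in these class levels was not tested, and the order of classes under the level of free RNA is a description.

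The groups were compared with UMIs summed per library and class, in edgeR's quasi-likelihood test with Benjamini-Hochberg adjustment over all genes of the class, and a gene was called at an adjusted p under 0.05. The share of all genes whose groups do not overlap is not reported, so a lack of overlap given below is a description and no evidence of a difference. Filtering on low counts left all 10 members in 6 classes, 8 in OPCs (not Nr1d1 and Dbp) and 6 in microglia (not Per2, Nr1d1, Dbp and Ciart), which gives 74 pairs of member and class among 106241 pairs of gene and class. With Ch25h intact, tau was accompanied by 1 called pair of the 74, Hlf in microglia, lower with tau. Over all genes and the 8 classes, 0.172% of pairs were called, and 1.71% of the genes tested in microglia. Without Ch25h, tau was accompanied by 1 called pair, Nr1d2 in CA pyramidal neurons, lower with tau, against 0.12% of all pairs and 0.194% of the genes tested in CA pyramidal neurons. The tau comparisons at the 2 genotypes share no libraries in their groups. All 16 libraries were fitted together with a shared filter, scaling and dispersion estimate, so the 2 tests are not independent. The comparison of Tau+ with Tau- over both genotypes was added after the data were seen and reuses those libraries. It called 3 pairs, Nr1d2 in CA pyramidal neurons and both Hlf and Tef in microglia, all lower with tau, against 0.932% of all pairs, 7.03% of the genes tested in microglia and 0.0666% of those in CA pyramidal neurons.

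Hlf had few UMIs in microglia, from 7 to 42 per library. In Ch25h+/+ Tau+ microglia the 4 libraries held 6.96, 25.4, 33.3 and 16.4 CPM, and in Ch25h+/+ Tau- microglia 47.0, 77.7, 49.1 and 126 CPM. Every library with tau lay below every library without it. The means were 20.5 ± 11.4 against 75.0 ± 36.9 CPM (SD, n = 4 each), with a log2 fold change of -1.94 (SE 0.43, edgeR adjusted p = 0.0315). In Ch25h-/- Tau+ microglia the values were 9.91, 25.1, 36.9 and 25.01 CPM, and in Ch25h-/- Tau- microglia 82.4, 66.7, 41.0 and 95.8 CPM. These groups did not overlap either, at means of 24.2 ± 11.1 and 71.5 ± 23.6 CPM (SD, n = 4 each), and the log2 fold change of -1.62 (SE 0.40) did not pass (edgeR adjusted p = 0.0629), though DESeq2 called it (adjusted p = 0.0201). With a term for replicates 1 and 2 against 3 and 4 it was -1.64 and was called (edgeR adjusted p = 0.0362). In edgeR this effect was -2.02 within replicates 1 and 2, which passed (adjusted p = 0.0408), and -1.20 within replicates 3 and 4, which did not (adjusted p = 0.809). The 2 tau effects on Hlf in microglia differed by 0.31 on the log2 scale, and no member passed the test of that difference. Over both genotypes Hlf in microglia stood at 22.4 ± 10.6 CPM with tau and 73.3 ± 28.7 without (SD, n = 8 each), without overlap, and the log2 fold change was -1.78 (SE 0.30, edgeR adjusted p = 0.00118). This call was held with any 1 of the 16 libraries left out (adjusted p up to 0.00443). It was held in replicates 1 and 2 alone (-2.004, adjusted p = 0.00282) and lost in replicates 3 and 4 alone (-1.54, adjusted p = 0.170). The call with Ch25h intact was lost in both sets, at -1.99 in replicates 1 and 2 (adjusted p = 0.0617) and -1.88 in replicates 3 and 4 (adjusted p = 0.339). It was also lost when Ch25h+/+ Tau+ replicate 1, 2 or 4 or Ch25h+/+ Tau- replicate 1, 2 or 4 was left out, with adjusted p up to 0.111.

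Other values moved with Hlf in microglia. The summed level of 40 neuronal markers in microglia, none of them at 0 in all libraries, was 1937 to 2392 CPM in Tau+ libraries and 2265 to 2758 in Tau- libraries. The summed level of the 10 microglial markers was 8313 to 12247 CPM with tau and 10582 to 13087 without. Hlf in barcodes under 100 UMIs was 37.2 to 49.7 CPM with tau and 42.0 to 91.2 without. In all 8 Tau+ libraries the level of Hlf in microglia was below that of free RNA, with ratios of 0.159 to 0.742 (median 0.577). In the Tau- libraries the ratio ran from 0.449 to 2.02 (median 1.37). Markers of other glia moved as well. The summed astrocyte markers in microglia were 378 to 505 CPM with tau and 446 to 652 without, and the oligodendrocyte markers 321 to 488 CPM (median 384) with tau and 118 to 428 (median 293) without. Microglia with tau were also deeper, with a median of 1337 to 1988 UMIs per nucleus by library against 1075 to 1571 without. The part of free RNA, of RNA from other cell types and of depth in the results on Hlf and Tef in microglia was not tested. Microglia numbered 262 to 645 nuclei per Tau+ library and 177 to 447 per Tau- library. The microglia cluster also held 6 border macrophage markers at 2-fold or more. These macrophages were not separated from microglia, and the part of their share in these results was not tested.

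Tef, the second PAR bZIP factor lower in microglia, was called only with both genotypes joined. Its levels were 62.6, 69.1, 92.2 and 50.5 CPM in Ch25h+/+ Tau+ microglia, and 78.4, 127, 111 and 84.2 CPM in Ch25h+/+ Tau-. They were 60.7, 65.4, 73.8 and 55.0 CPM in Ch25h-/- Tau+ microglia, and 69.4, 126, 104 and 103 CPM in Ch25h-/- Tau-. In each genotype the groups overlapped. With Ch25h intact the highest library with tau lay above 2 of the 4 without, and without Ch25h it lay above 1 of the 4. Over both genotypes the means were 66.1 ± 12.9 against 100 ± 21.3 CPM (SD, n = 8 each), with a log2 fold change of -0.62 (SE 0.15, edgeR adjusted p = 0.0111). The fold changes at the single genotypes were -0.59 with Ch25h intact (adjusted p = 0.1803) and -0.66 without it (adjusted p = 0.138), both edgeR. The joined call was held with any 1 library left out (adjusted p up to 0.0378) and in replicates 1 and 2 alone (-0.64, adjusted p = 0.0428), and lost in replicates 3 and 4 alone (-0.61, adjusted p = 0.355). Tef in barcodes under 100 UMIs was 98.6 to 119 CPM with tau and 97.5 to 128 without, at or above most of its levels in microglia.

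Nr1d2 in CA pyramidal neurons moved less and varied less. Its levels were 31.4, 29.3, 31.2 and 33.6 CPM in Ch25h+/+ Tau+ and 38.4, 38.0, 34.1 and 35.2 CPM in Ch25h+/+ Tau-. They were 28.2, 28.9, 30.2 and 28.2 CPM in Ch25h-/- Tau+ and 37.9, 38.8, 40.4 and 34.8 CPM in Ch25h-/- Tau-. In both genotypes every library with tau lay below every library without it. Without Ch25h the means were 28.9 ± 0.93 against 38.0 ± 2.33 CPM (SD, n = 4 each), with a log2 fold change of -0.39 (SE 0.07, edgeR adjusted p = 0.0388). With Ch25h intact the log2 fold change was -0.21 and did not pass (edgeR adjusted p = 0.937, unadjusted p = 0.00924). Over both genotypes the means were 30.1 ± 1.87 and 37.2 ± 2.22 CPM (SD, n = 8 each), without overlap, with a log2 fold change of -0.30 (SE 0.05, edgeR adjusted p = 0.0316). Nr1d2 in barcodes under 100 UMIs ran from 57.4 to 92.1 CPM over the 16 libraries, above its level in CA pyramidal neurons, and the part of free RNA was not tested. CA pyramidal neurons join several clusters of nuclei, and the part of cluster shares in the levels of this class was not tested. By edgeR these calls lay near the threshold. With the term for replicates 1 and 2 against 3 and 4 the adjusted p was 0.0177 without Ch25h and 0.0124 over both genotypes, and by DESeq2 it was 0.000602 and 0.000123. Without Ch25h, the call was lost in 9 of the 16 settings that leave out 1 library (adjusted p up to 0.177), those without Ch25h+/+ Tau+ replicate 1 or 2, Ch25h+/+ Tau- replicate 1, any Ch25h-/- Tau+ replicate, or Ch25h-/- Tau- replicate 1 or 3. Over both genotypes it was held in 4 of the 16 (adjusted p up to 0.103). Within replicates 1 and 2 alone and 3 and 4 alone the effect without Ch25h was -0.43 and -0.37, neither passing (adjusted p = 0.256 and 0.205). Over both genotypes it was -0.38 and -0.23, and neither passed (adjusted p = 0.0932 and 0.380).

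**Figure D2:**
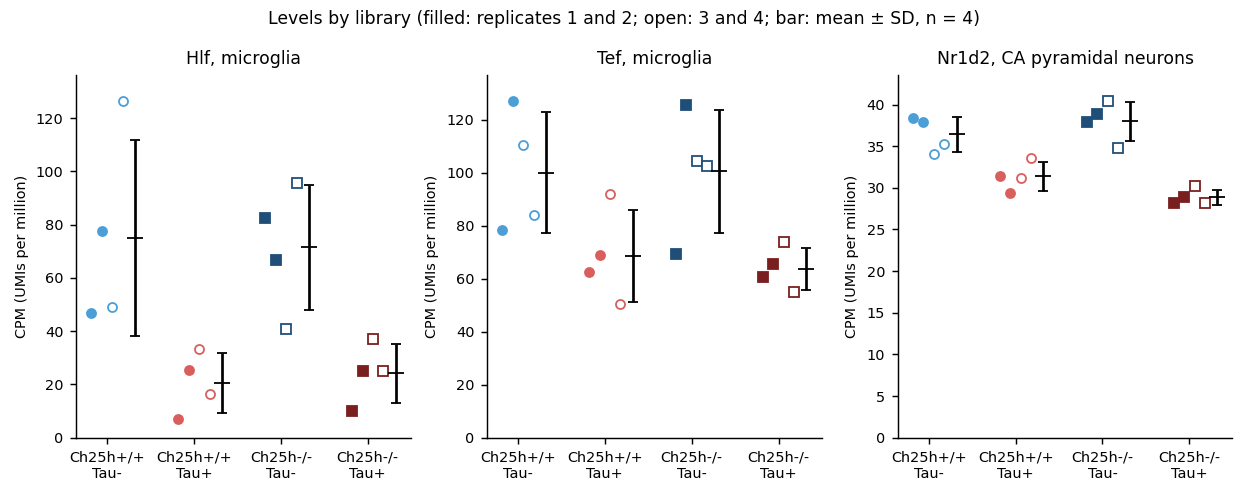
Level (CPM, vertical axis) of Hlf and Tef in microglia and of Nr1d2 in CA pyramidal neurons in the 4 groups (horizontal axis), 1 point per library, filled for replicates 1 and 2 and open for 3 and 4, with the mean and SD (n = 4). Hlf lies between 6.96 and 36.9 CPM in the 8 Tau+ libraries and between 41.0 and 126 CPM in the 8 Tau- libraries.

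Directions were counted over all 74 pairs, the called ones included. Without Ch25h, 60 of the 74 log2 fold changes with tau were negative (81.1%), against 50.7% of all gene and class pairs, and the members' median was -0.23 where the medians of all genes lay near 0. At an unadjusted p under 0.05 there were 20 pairs of 74, with 8.09% of all pairs as the background. With Ch25h intact, 44 of 74 were negative (59.5%, against 50.6% of all pairs), the median was -0.02, and 8 pairs had an unadjusted p under 0.05 beside 6.59% of all pairs. Over both genotypes 59 of 74 were negative, against 49.98% of all pairs, the median was -0.14, and 24 pairs had an unadjusted p under 0.05 beside 10.1% of all pairs. The classes of a library share its free RNA and its hour of sampling, so the 74 pairs are not independent. Per1, Tef and Hlf were negative in all 8 classes without Ch25h, and Per2 in all 7 where it was tested. Per1 medians over classes were -0.16 with Ch25h intact and -0.43 without, those of Per2 -0.19 and -0.35, and those of Per3 0.07 and -0.10. For Nr1d1 they were -0.01 and -0.20, for Dbp 0.10 and -0.38, and for Ciart -0.07 and -0.20.

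Arntl alone among the members had positive fold changes with tau in all 4 neuronal classes at both genotypes. With Ch25h intact, Nr1d1 and Dbp were positive in 3 of the 4. In CA pyramidal neurons its levels were 74.6, 68.9, 75.3 and 64.3 CPM in Ch25h+/+ Tau+ and 70.7, 59.4, 54.7 and 59.0 CPM in Ch25h+/+ Tau-. They were 78.0, 93.0, 72.2 and 67.3 CPM in Ch25h-/- Tau+ and 67.2, 69.7, 46.6 and 43.0 CPM in Ch25h-/- Tau-. In each genotype the groups overlapped. The log2 fold change without Ch25h was 0.45 (SE 0.14) and did not pass (edgeR adjusted p = 0.218), and over both genotypes it was 0.33 (adjusted p = 0.240). With a term for replicates 1 and 2 against 3 and 4 both effects were called, at 0.47 without Ch25h (edgeR adjusted p = 0.0393) and 0.34 over both genotypes (edgeR adjusted p = 0.0420). Replicates 3 and 4 alone passed for both, at 0.64 (adjusted p = 0.0314) and 0.47 (adjusted p = 0.0478), and replicates 1 and 2 alone for neither, at 0.32 (adjusted p = 0.581) and 0.23 (adjusted p = 0.422). Since the split into these sets was drawn from the same data, these calls of Arntl are descriptions and no support for an effect. The fold changes in neurons ran from 0.01 to 0.45. In glia they were negative in astrocytes at both genotypes (-0.31 and -0.29), in OPCs with Ch25h intact (-0.59), and in microglia (-0.42) and oligodendrocytes (-0.33) without Ch25h, and positive in the other 3 cases. None of these was called in the analysis of all 16 libraries without that term. With Ch25h intact, Arntl in astrocytes was called with replicates 1 and 2 only, and no member was called with replicates 3 and 4 only. In DG granule neurons with Ch25h intact the groups did not overlap, with 49.3 to 56.3 CPM with tau and 44.0 to 46.9 without. The log2 fold change of 0.22 had an edgeR adjusted p of 0.839, so no difference was called.

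Several other pairs did not pass, some with separate groups and some with overlap. Ciart in CA pyramidal neurons without Ch25h stood at 4.26 ± 0.53 CPM with tau and 6.69 ± 1.19 without (SD, n = 4 each), from 51 to 100 UMIs per library, with a log2 fold change of -0.64 and an edgeR adjusted p of 0.219. Over both genotypes it was called with the term for replicates 1 and 2 against 3 and 4 (log2 fold change -0.56, edgeR adjusted p = 0.0437) and by DESeq2 (-0.55, adjusted p = 0.0484), and not by edgeR without the term. Within replicates 1 and 2 it was -0.60 and within replicates 3 and 4 -0.51, and neither passed (adjusted p = 0.289 and 0.334). Per2 in DG granule neurons without Ch25h was 16.4 ± 3.27 against 24.8 ± 3.50 CPM (SD, n = 4 each), without overlap, at an edgeR adjusted p of 0.602. With Ch25h intact the same gene and class gave 15.8 to 31.1 CPM with tau and 18.9 to 36.0 without. Per3 in astrocytes was 229 ± 44.6 CPM with tau and 183 ± 37.1 without in Ch25h-/- (SD, n = 4 each), with groups that overlapped (182 to 273 against 133 to 222 CPM), 1 of the 14 pairs above 0, at an edgeR adjusted p of 0.737. In all nuclei together, where class shares also enter and fewer nuclei of a class cannot be told apart from less RNA per nucleus, Tef was 80.1 ± 4.69 CPM with tau and 92.5 ± 9.06 without over both genotypes (SD, n = 8 each; log2 fold change -0.21, edgeR adjusted p = 0.0404, 4.63% of all genes called), a call held in 3 of the 16 settings that leave out 1 library. It was lost in replicates 1 and 2 alone (-0.12, adjusted p = 0.299) and in replicates 3 and 4 alone (-0.28, adjusted p = 0.201).

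**Figure D3:**
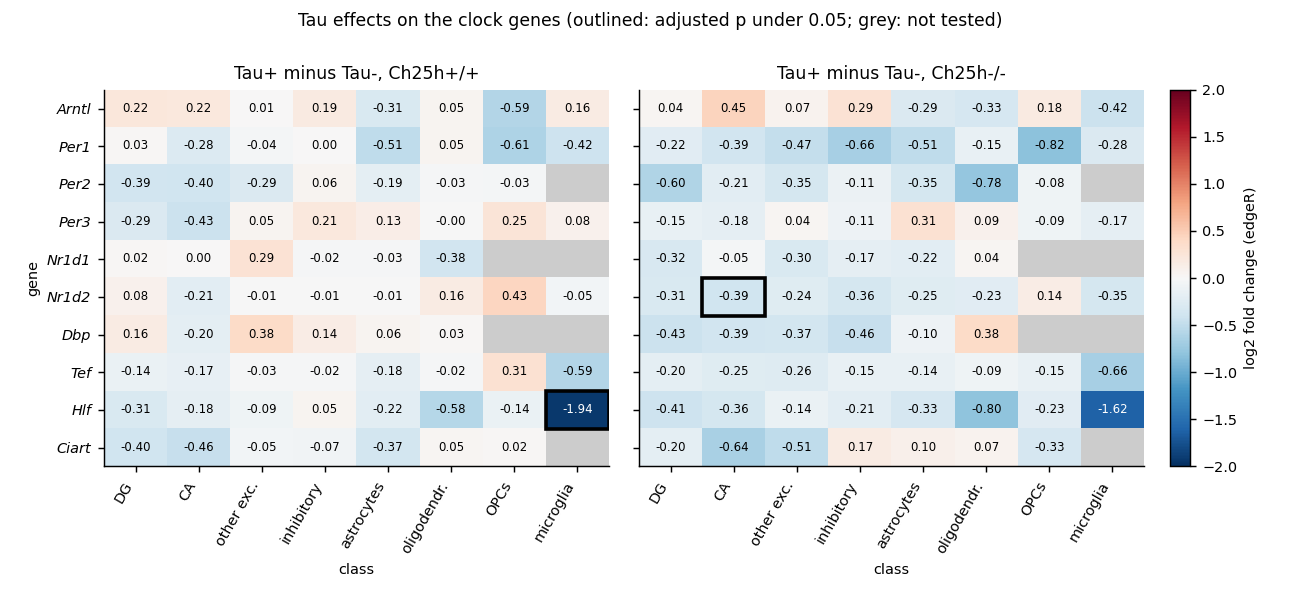
Log2 fold change with tau (color and number) of each clock gene (rows) in each class (columns), with Ch25h intact on the left and without Ch25h on the right. Outlined squares have an edgeR adjusted p under 0.05 and grey squares were not tested. Hlf in microglia is lowest in both panels, at -1.94 and -1.62.

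Loss of Ch25h was accompanied by no called member. In Tau+ mice 0 of 74 pairs were called by edgeR and by DESeq2, 0 had an unadjusted p under 0.05 beside 3.21% of all pairs, and 0.00471% of all gene and class pairs were called. In Tau- mice 0 pairs were called by either tool, 4 had an unadjusted p under 0.05 beside 3.37% of all pairs, and 0.00282% of all pairs were called. The 4 were Dbp in other excitatory neurons (log2 fold change 0.57), Nr1d2 in oligodendrocytes (0.29) and inhibitory neurons (0.24), and Arntl in DG granule neurons (0.17). Dbp in other excitatory neurons gave 14.3, 17.5, 20.2 and 14.2 CPM in Ch25h-/- Tau- and 12.6, 12.8, 10.7 and 8.75 CPM in Ch25h+/+ Tau-, without overlap, at an edgeR adjusted p of 1. Over both tau states, a comparison added after the data were seen, 0 of 74 pairs were called by either tool, 1 had an unadjusted p under 0.05 (Per1 in microglia, -0.51) beside 2.58% of all pairs, and 0.00941% of all pairs were called. For Ch25h loss in Tau- mice 22 of the 74 fold changes were negative (29.7%, against 50.2% of all pairs). In Tau+ mice 47 of the 74 were negative (63.5%, against 50.03% of all pairs). Nr1d2, Tef and Hlf had positive fold changes in all 8 classes for Ch25h loss in Tau- mice, with medians of 0.20, 0.08 and 0.10. In Tau+ mice Nr1d2 and Per1 had negative fold changes in all 8 classes, with medians of -0.10 and -0.31. The comparisons of Ch25h loss share libraries with those of tau, so their signs are not independent of them.

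The test of whether tau effects differed between genotypes called 0 of 74 pairs by edgeR and by DESeq2, with 8 at an unadjusted p under 0.05 beside 4.1% of all pairs, and 0% of all pairs called. The members' median difference was -0.17 on the log2 scale, tau effect in Ch25h-/- minus that in Ch25h+/+, and 54 of 74 were negative (73.0%, against 49.6% of all pairs). Dbp in other excitatory neurons differed by -0.75 (SE 0.27, unadjusted p = 0.0129, edgeR adjusted p = 0.999), from a tau effect of 0.38 with Ch25h intact and of -0.37 without. Nr1d1 in the same class differed by -0.59 (unadjusted p = 0.0291, edgeR adjusted p = 0.999). Nr1d2 had a negative difference in all 8 classes, with a median of -0.29. None of these passed after adjustment over all genes of the class, so no difference between genotypes was called.

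The spread of each member between libraries of the same group is given beside the spread that counting alone gives. Over all nuclei, Per1 had a within-group coefficient of variation of 24.6% where counting gives 2.79%, and its highest library, at 35.7 CPM, was 2.23 times its lowest. Dbp varied by 22.0% (counting 4.06%, from 6.35 to 17.7 CPM), Per3 by 20.7% (1.76%), Nr1d1 by 19.8% (4.32%), Per2 by 18.6% (2.79%), Ciart by 17.4% (5.02%) and Hlf by 14.1% (1.85%). Arntl at 8.16% (1.78%), Nr1d2 at 8.48% (1.90%) and Tef at 7.46% (1.505%) varied least. All-nuclei levels also hold the class shares of a library. These spreads were not compared with those of other genes, and their relation to the hour of sampling was not tested.

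**Figure D4:**
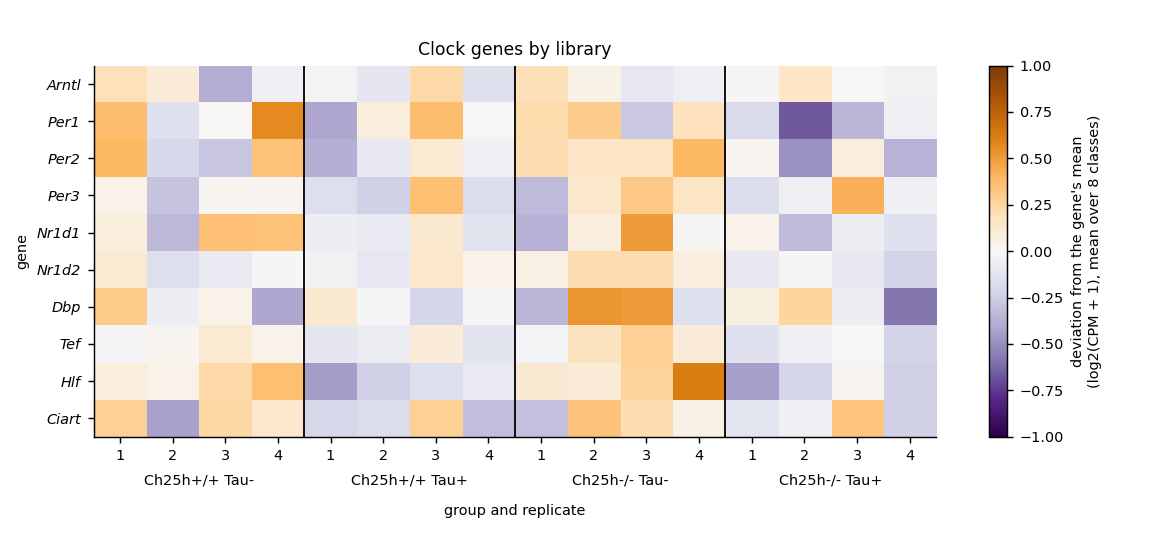
Deviation of each clock gene (rows) in each library (columns, by group and replicate) from its mean over the 16 libraries, on the log2(CPM + 1) scale averaged over the 8 classes. Hlf lies near or above its mean in the 8 Tau- libraries and near or below it in the 8 Tau+ libraries, and the row of Per1 reaches furthest below in Ch25h-/- Tau+ replicate 2.

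Whether the members moved together across libraries was asked in 19 relations over the 16 libraries, with two-sided permutation p-values and Benjamini-Hochberg adjustment over the 19. Arntl was set against each other member, each level being the mean of log2(CPM + 1) over the 8 classes. None of the 9 relations passed. The steepest was with Nr1d1, its textbook repressor, at r = -0.47 (permutation adjusted p = 0.122) and rho = -0.26 (adjusted p = 0.558), with r = -0.46 when the 2 libraries farthest from the median were left out, -0.36 within replicates 1 and 2 and -0.30 within replicates 3 and 4. For the other 8 members r ran from -0.20 with Hlf to 0.25 with Nr1d2. These means weight all 8 classes equally. Microglia, among them, held only 0 to 4 UMIs of Nr1d1, 0 to 4 of Ciart and 1 to 15 of Dbp per library. Counting error in such classes thus enters these r values. An antiphase of Arntl and its targets was not detected across these libraries. The hour at which each mouse was sampled is not given, so these r values cannot decide whether an antiphase is present.

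Each member was also set against itself, in all named neurons against all named glia of the same library, and 7 of 10 relations passed. The lowest r among the 7 was 0.67. Over the 10039 genes with a mean of at least 10 CPM in all nuclei (scaled by UMIs alone), 24.1% had an r as high, and the median r was 0.43, against 0.67 over the 10 members (a description added after the data were seen). Hlf gave r = 0.85 (adjusted p = 0.000855) and rho = 0.86 (adjusted p = 0.00171). Tef gave r = 0.81 (0.000855) and rho = 0.66 (0.0244), and Nr1d1 r = 0.80 (0.00139) and rho = 0.80 (0.00313). Dbp gave r = 0.74 (0.00470) and rho = 0.57 (0.0609), Per2 r = 0.68 (0.0119) and rho = 0.69 (0.0192), Per3 r = 0.67 (0.0119) and rho = 0.60 (0.0506), and Ciart r = 0.67 (0.0119) and rho = 0.72 (0.0141). Nr1d2 at r = 0.56 (0.0557) and rho = 0.42 (0.208), Per1 at r = 0.39 (0.242) and rho = 0.56 (0.0609), and Arntl at r = -0.48 (0.122) and rho = -0.44 (0.182) did not pass. For Arntl r was 0.08 with the 4 neuronal and 4 glial classes weighted equally and 0.04 with group means removed. Libraries with high pooled levels of Hlf, Tef or Nr1d1 in neurons thus tended to have high pooled levels in glia. The shares of classes within neurons and within glia enter these pooled levels, and their part was not tested. With the classes weighted equally r was 0.77 for Hlf, 0.72 for Tef and 0.50 for Nr1d1, the last of which did not pass.

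Some of these relations rest on few libraries. Without the 2 libraries farthest from the median, r was 0.86 for Hlf, which passed, and 0.61 for Tef, 0.69 for Nr1d1, 0.47 for Dbp, 0.58 for Per2, 0.55 for Per3 and 0.59 for Ciart, which did not. Within replicates 1 and 2, r was 0.44 for Hlf, 0.58 for Tef, 0.81 for Nr1d1, 0.73 for Dbp, 0.68 for Per2, 0.08 for Per3 and 0.59 for Ciart. Within replicates 3 and 4 the values were 0.86, 0.90, 0.84, 0.77, 0.83, 0.70 and 0.59 in the same order. With group means removed r was 0.75 for Hlf, 0.71 for Tef, 0.86 for Nr1d1, 0.72 for Dbp, 0.56 for Per2, 0.71 for Per3 and 0.72 for Ciart. With the 4 neuronal and 4 glial classes weighted equally, an alternative added after the data were seen, Per2, Per3, Dbp, Tef and Hlf passed, while Nr1d1 at 0.50 and Ciart at 0.50 did not (adjusted p = 0.0721 for each). Neurons and glia of a library share its free RNA. Levels in barcodes under 100 UMIs gave an r with those in neurons and in glia of 0.87 and 0.86 for Hlf, 0.52 and 0.54 for Tef, 0.79 and 0.68 for Nr1d1, and 0.91 and 0.78 for Dbp. The values were 0.73 and 0.45 for Per2, 0.65 and 0.34 for Per3, and 0.66 and 0.24 for Ciart. The part of free RNA in these relations was not tested.

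**Figure D5:**
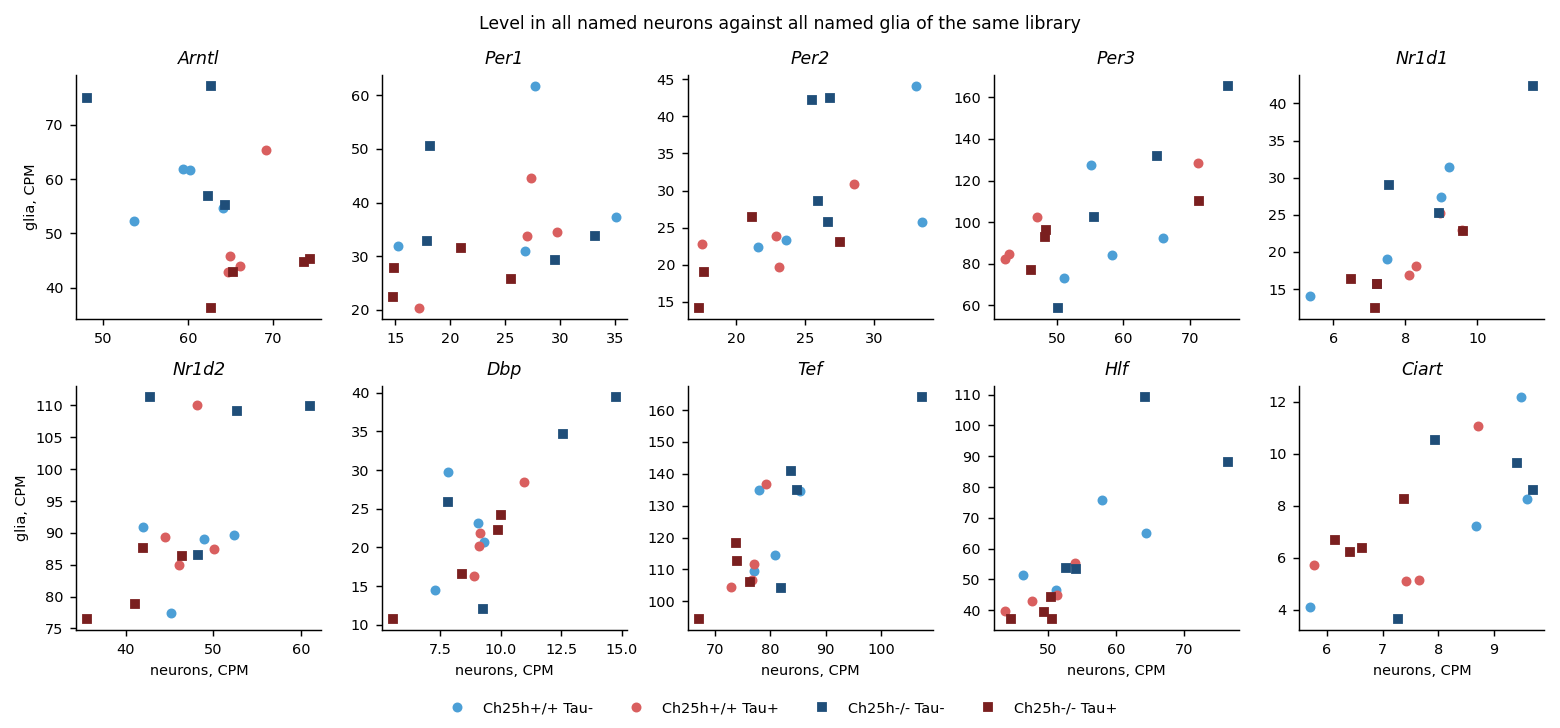
Level of each clock gene in all named neurons (horizontal axis) and in all named glia (vertical axis) of the same library, 1 panel per gene and 1 point per library (n = 16), colored by group. Hlf, Tef and Nr1d1 rise together in both, at r of 0.85, 0.81 and 0.80, while Arntl, at r = -0.48, did not pass. The shares of classes within neurons and within glia enter these pooled levels.

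Other genes of the clock pathway were taken from a list of 20, among them the partners Clock and Npas2, the repressors Cry1 and Cry2, the ROR receptors, Nfil3, Bhlhe40, Bhlhe41 and the kinases and ubiquitin ligases that act on PER and CRY proteins. They gave 135 pairs with a class. By edgeR and by DESeq2, 0 of them were called in the 8 classes for any comparison, in either direction. At an unadjusted p under 0.05 there were 15 pairs for tau with Ch25h intact (6.59% of all pairs), 11 for tau without Ch25h (8.09% of all pairs) and 21 for tau over both genotypes (10.1% of all pairs). There were 5 for Ch25h loss with tau (3.21% of all pairs), 5 for Ch25h loss without tau (3.37% of all pairs) and 3 for the difference between tau effects (4.1% of all pairs). Their median log2 fold changes with tau were -0.01 with Ch25h intact and -0.02 without, with 68 and 75 of 135 negative, beside 50.6% and 50.7% of all pairs. The lowest adjusted p was 0.0786, for Bhlhe41, a repressor at E-boxes, in microglia over both genotypes (log2 fold change 0.34).

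Genes that activity or glucocorticoids induce were read beside the members, since both also act on Per1. Of 7 activity-induced genes, Junb in astrocytes was higher with tau over both genotypes, at 26.5 ± 13.7 against 5.80 ± 2.52 CPM (SD, n = 8 each; log2 fold change 2.30, edgeR adjusted p = 0.0106), 1 of 39 pairs, where 2.33% of the genes tested in astrocytes and 0.932% of all pairs were called. Within replicates 1 and 2 the log2 fold change was 2.29 (adjusted p = 6.58e-06) and within replicates 3 and 4 it was 2.05 and did not pass (adjusted p = 0.296). None was called at a single genotype by edgeR, and DESeq2 called 1 with Ch25h intact. Of 6 glucocorticoid-induced genes, Tsc22d3 in microglia was lower with tau over both genotypes, at 21.6 ± 9.84 against 48.0 ± 31.0 CPM (SD, n = 8 each; log2 fold change -1.14, edgeR adjusted p = 0.0356), 1 of 40 pairs, where 7.03% of the genes tested in microglia were called. Within replicates 1 and 2 it was -0.94 and within replicates 3 and 4 -1.29, and neither passed (adjusted p = 0.0704 and 0.170). No gene of that list was called at a single genotype by either tool. Per1 in astrocytes over both genotypes was 39.8 ± 12.5 CPM with tau and 56.2 ± 16.9 without (SD, n = 8 each; log2 fold change -0.51, edgeR adjusted p = 0.258). The part of activity or glucocorticoids in the members' levels was not tested.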

How the data were processed

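Nuclear RNA of 16 hippocampi was sequenced with the 10x Genomics 3' kit, version 3.1, per the labels' protocols. The deposited values are UMI counts per gene and barcode for all barcodes. The file headers name Cell Ranger 4, whereas the submitters' processing notes name Cell Ranger 3.1.0 and the build mm10. Intron counting, strand setting and annotation are not given in the sources used here.

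Nuclei were taken at 500 UMIs, 300 genes and at most 5% mitochondrial UMIs. In each library, the barcodes most like simulated doublets were removed (0.8% per 1000 nuclei, 6.51 to 9.33% of nuclei). Clusters (scanpy 1.11.5, 3000 variable genes without the clock lists, 50 components, resolution 1) were named from fixed markers. Of 53 clusters, 17 with 3942 nuclei stayed unnamed, and rebuilt names may differ from the authors'. Counts were summed per library and class and tested with edgeR 4.0.16 (quasi-likelihood, TMM, filterByExpr, 1 mean per group, all 16 libraries, two-sided) and, as an alternative, DESeq2 1.42.0, in R 4.3.3. Other alternatives were the normalization, the filter, doublets kept, at least 1000 UMIs, a term for replicates 1 and 2 against 3 and 4, each of these sets alone, and each library left out. The code was tested on simulated data. P-values measure the spread between these 16 samples.

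The members, gene lists, markers and tests were chosen with earlier results of these data known. All 10 members are described, genes of the other lists are named where called (and Bhlhe41, chosen after its value was seen), and the genes most like Arntl and Dbp are the 5 with the highest r.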

Additional observations from a re-analysis of the deposited data

Results flagged for a closer look

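Within each group of 4, the highest or lowest library was set against the others by its gap over the range (Dixon's test at 95%) in 52 groups, and 7 stood apart, where chance gives about 1 in 20. All are levels over all nuclei. Arntl in Ch25h+/+ Tau- replicate 3 was 53.1 CPM against 62.2 to 63.8 in the others of its group. Per2 in Ch25h-/- Tau- replicate 4 was 29.8 CPM against 27.0 to 27.2. Nr1d1 in Ch25h-/- Tau+ replicate 1 was 11.8 CPM against 8.32 to 8.72. Dbp in Ch25h+/+ Tau- replicate 4 was 8.92 CPM against 11.2 to 11.5, and in Ch25h+/+ Tau+ replicate 1 it was 15.1 CPM against 10.9 to 11.5. In Ch25h-/- Tau+ replicate 4, Tef was 71.9 CPM against 80.4 to 81.1 and Hlf was 44.7 CPM against 50.6 to 51.4. Class shares enter all of these levels.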

How the results depend on the processing

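No paired analysis was possible because the labels give no replicate numbers, and the numbers used here follow the order of deposit. No result changed sign among those with a call. The tau effect with Ch25h intact called 1 pair, 0 with replicates 3 and 4 only, and 0 to 1 with each library left out (the single call with replicates 1 and 2 only was Arntl in astrocytes, not Hlf). The tau effect without Ch25h called 1 pair in the main analysis. It called 2 by DESeq2, 2 with doublets kept and 2 with at least 1000 UMIs, Hlf in microglia being the addition, and 3 with the term for replicates 1 and 2 against 3 and 4 (Arntl and Nr1d2 in CA pyramidal neurons and Hlf in microglia), and 0 to 2 with each library left out. Without the filter on low counts its 1 call was Hlf in microglia (Nr1d2 had adjusted p = 0.0588), and with replicates 3 and 4 only it was Arntl in CA pyramidal neurons. The tau effect over both genotypes called 3 pairs, 5 with that term (Ciart and Arntl in CA pyramidal neurons added), 4 by DESeq2 (Ciart in CA pyramidal neurons added), 1 with replicates 3 and 4 only (Arntl in CA pyramidal neurons) and 2 to 3 with each library left out. Comparisons of Ch25h loss and of the difference between tau effects called 0 in every alternative. The share of all gene and class pairs called under each alternative is not reported, so these counts cannot be set against a background. Of the 70 neighbouring class pairs, 38 to 42 differed with each library left out. Of the 19 relations 7 passed, 0 within replicates 1 and 2 only, 4 within replicates 3 and 4 only and 1 without the 2 libraries farthest from the median. The sets of replicates hold 8 libraries each, and the cause of these changes was not tested. Depth limits the members in OPCs and microglia, where 2 and 4 of them had too few counts to test.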

Other observations

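Classes too small to compare were summed over all libraries, so their levels have no replicate error, and the 95% Poisson intervals cover counting error only. Fibroblasts (2902 nuclei, 3 to 389 per library) held Hlf at 565 CPM (547 to 584), Per3 at 336 CPM (321 to 350), Tef at 230 CPM (219 to 242), Nr1d2 at 209 CPM (198 to 221) and Dbp at 67.3 CPM (61.0 to 74.1). Arntl in the same nuclei was 21.6 CPM (18.1 to 25.5). Mural cells (399 nuclei) held Dbp at 99.2 CPM (72.4 to 133), Nr1d1 at 81.6 CPM (57.5 to 112) and Per2 at 90.4 CPM (64.9 to 123), and endothelial cells (307 nuclei) Nr1d2 at 144 CPM (112 to 182). In fibroblasts Hlf, Per3, Tef, Nr1d2 and Dbp lay above their astrocyte means, and Arntl lay below. Dbp, Nr1d1 and Per2 in mural cells also lay above the astrocyte means. The scaling of these levels differs from that of the astrocyte means, and the differences were not tested. The endothelial cluster held 8 endothelial and 8 mural markers at 2-fold or more, so its levels are not set apart from those of mural cells. In choroid plexus cells (2173 nuclei) Per2 was 47.5 CPM (43.2 to 52.1) and Dbp 35.1 CPM (31.4 to 39.1). Fibroblasts numbered 56 to 389 per Tau+ library (median 166) and 3 to 374 per Tau- library (median 151).

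The genes whose levels, averaged over the 8 classes, followed Arntl most closely over the 16 libraries were Stk16 (r = 0.83), Slc25a37, Capn15, Ccnl2 and Gm1043 (0.80 each), out of 10034 genes with a mean of at least 10 CPM after TMM scaling. For Dbp they were Plekhh1 (r = 0.84), Kctd20, Tbl1xr1 and Eml2 (0.80 each) and Pknox2 (0.79). These are descriptions, and the libraries share differences in depth and composition.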
